A study of Mus musculus with 14 samples.

Results

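Circadian clock genes were examined in RNA-seq libraries of mammary epithelial cells from 7 pairs of WT and Usp22 OE/OE littermates. The set held 10 genes, taken by symbol from the table of 16124 genes: Arntl, Clock, Per1, Per2, Per3, Cry1, Cry2, Nr1d1, Nr1d2 and Dbp. All 10 were in the table. The mice were females aged 3.5 months, with 1 library per mouse, and the pairs carried the numbers 1, 3, 4, 5, 6, 7 and 8. OE/OE mice were homozygous for a Usp22 cDNA with FLAG and MYC tags, inserted at ROSA26 under the CAGGS promoter, whose STOP cassette had been removed through a Zp3-Cre transgene. Overexpression was therefore germline and ubiquitous rather than limited to the epithelium, and the WT littermates carried no insertion. Dissected glands were digested with collagenase and hyaluronidase and the epithelial organoids were enriched by pulse centrifugation before RNA was taken. The time of day and the estrous stage at collection are not given in the sources used here, so litter and collection time cannot be told apart.

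The mammalian clock is a transcriptional feedback loop. ARNTL (also called BMAL1) and CLOCK bind E-box sequences as a dimer and activate the Per, Cry, Nr1d and Dbp genes, PER and CRY proteins then repress that dimer, and the NR1D1 and NR1D2 receptors (REV-ERBs) repress Arntl. In most peripheral tissues, the mammary gland among them, Arntl and Dbp transcripts are at their highest at nearly opposite times of day, so that the level of one relative to the other is a rough reading of the phase.

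Promoter sequence was matched by symbol from RefSeq (GRCm38.p6) for 9 of the 10 genes. The 250 bases before the annotated start are shown for 3 of them, chosen because each holds a different clock motif and because the 3 genes behaved differently between litters below. They are given 5′ to 3′ on the strand of the gene, with the motif letters in capitals on either strand. The Per1 window shown (chr11:69098699-69098948, plus strand) lies within the annotated Per1 gene, upstream of an internal start and with 1 exonic base, and holds the E-box CACGTG and the core of the ROR and REV-ERB element AGGTCA, which begin 166 and 137 bases before that start. Another Per1 window (chr11:69099902-69100151) held none of the motifs searched and is not shown. The Per3 window (chr4:151044666-151044915, minus strand) lies in an intron of Camta1 and holds the D-box TTATGTAA, the element bound by DBP and its relatives, 205 and 158 bases before the start. The Nr1d1 window (chr11:98775378-98775627, minus strand) lies in no annotated gene and holds the E-box variant CACGTT 28 bases before the start.
Per1: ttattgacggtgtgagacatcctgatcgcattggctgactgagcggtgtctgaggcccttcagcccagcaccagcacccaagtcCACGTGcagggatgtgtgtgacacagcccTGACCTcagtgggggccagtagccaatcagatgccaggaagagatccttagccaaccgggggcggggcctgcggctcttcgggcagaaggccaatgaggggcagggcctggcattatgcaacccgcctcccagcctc
Per3: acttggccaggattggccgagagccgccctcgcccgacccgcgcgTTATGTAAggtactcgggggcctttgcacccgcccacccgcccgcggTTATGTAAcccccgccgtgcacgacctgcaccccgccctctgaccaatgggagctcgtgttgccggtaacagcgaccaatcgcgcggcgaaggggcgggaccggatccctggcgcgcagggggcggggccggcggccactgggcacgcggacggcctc
Nr1d1: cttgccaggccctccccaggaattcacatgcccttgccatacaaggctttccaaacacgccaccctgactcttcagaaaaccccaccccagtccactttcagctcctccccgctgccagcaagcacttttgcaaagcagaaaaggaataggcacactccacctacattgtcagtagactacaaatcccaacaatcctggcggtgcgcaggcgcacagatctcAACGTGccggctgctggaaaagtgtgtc
Among all 32851 RefSeq windows of this length, CACGTG was present in 6.02%, AGGTCA in 14%, TTATGTAA in 0.819% and CACGTT in 3.85%, each counted on both strands. Of the genes examined here, CACGTG was also in the Cry1 window, CACGTT in those of Cry1 and Cry2, and AGGTCA in those of Clock and Nr1d2. The D-box variant TTACGTAA and the cyclic AMP response element TGACGTCA, searched in the same way, were in none of the 13 windows of these genes and in 0.113% and 1.55% of all windows. A match describes the letters only.

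Between 20125106 and 41835978 fragments were counted per library, with the fewest in the WT mice of pairs 1 and 8. Usp22 lay between 3500 and 5380 normalized counts across WT mice and between 74948 and 144288 across OE/OE mice, so each library matched its genotype. The labelled cell type was present, with the 12 pan-epithelial markers summing to between 335010 and 567940 normalized counts in WT and between 354300 and 625510 in OE/OE. Markers of adipocytes were lower in OE/OE, with 6 of the 9 measured genes below in the pair test and none above, as were 3 of 10 fibroblast markers, beside 1.85% of all genes lower in OE/OE. Of the 12 pan-epithelial markers 2 were higher and none lower, beside 1.95% of all genes higher. The OE/OE library of pair 4 stood apart in the clock genes, and values without that pair are given beside the calls and directions it changed.

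All 10 clock genes had counts in every library, and their levels per length spanned a wide range. In WT, Nr1d1 had the highest level per kilobase of exon, 1716 normalized counts per kb ± 948 (SD, n = 7), followed by Per1 at 823 ± 208, Nr1d2 at 737 ± 130, Cry2 at 565 ± 202, Per2 at 468 ± 106, Cry1 at 408 ± 86.7 and Clock at 262 ± 71.2. Arntl had 138 ± 21.3, Dbp 64.5 ± 38.9 and Per3 32.8 ± 11.5 normalized counts per kb. The ranges over the WT mice of neighbours in this order overlapped, except between Clock and Arntl. The widest gene over the 14 libraries was Dbp, whose highest value was 8.28 times its lowest, followed by Cry2 (6.06 times), Nr1d1 (5.36 times) and Per2 (4.74 times). The narrowest were Arntl (2.14 times) and Cry1 (2.20 times). On the log2 scale the SD of Dbp over the libraries was above that of 92.1% of the genes in the table, and the SD of Arntl above that of 31.7%.

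**Figure D1:**
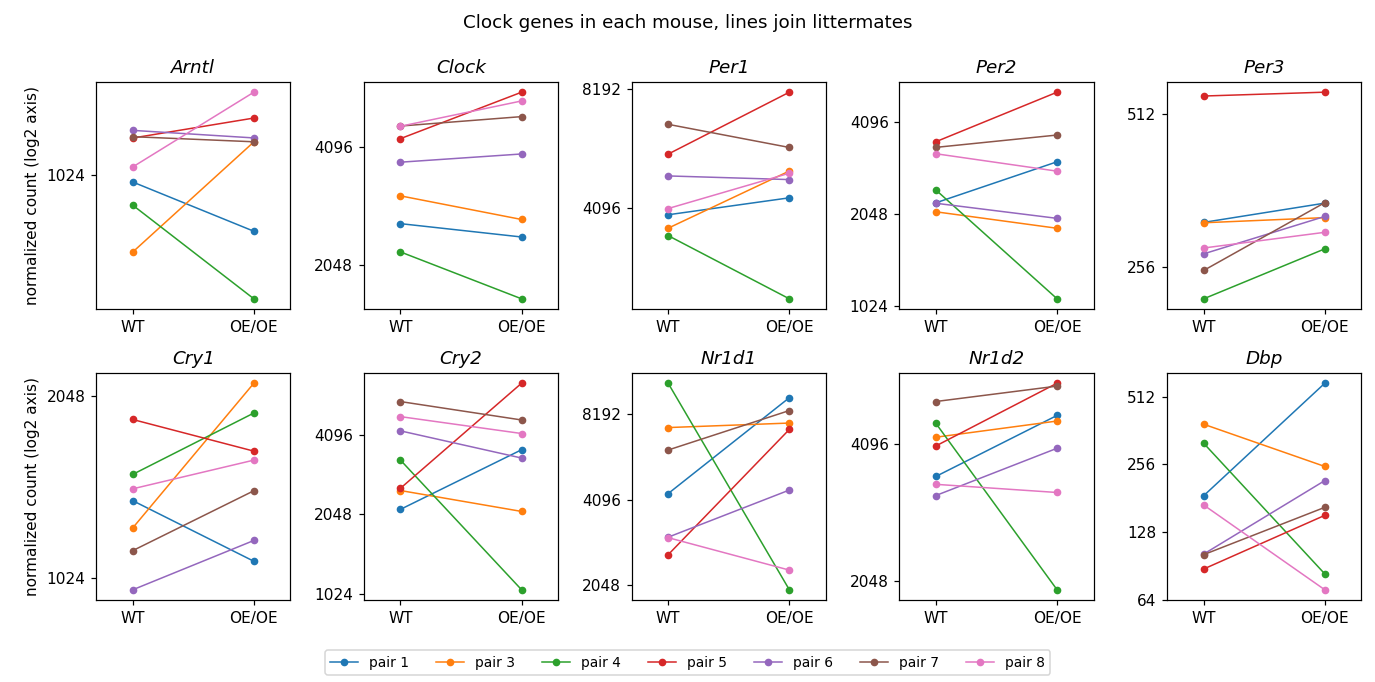
Normalized counts (log2 axis, a different range in each panel) of the 10 clock genes in WT and OE/OE mice, with a line joining the littermates of each of the 7 pairs. Lines of Clock keep pairs 4, 1 and 3 lowest in both genotypes, lines of Dbp and Nr1d1 cross, and Per3 of pair 5 lies above all other mice in both genotypes.

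Litters differed in the level of some clock genes more than littermates did. The question was whether the mice of a litter shared a clock state, and it was tested with limma's moderated F over the pair coefficients, in the fit that also held the genotype. After Benjamini-Hochberg adjustment over all genes, Clock (adjusted p = 0.00367), Per3 (adjusted p = 0.0113) and Per1 (adjusted p = 0.0334) differed between litters, 3 of the 10 genes, beside 33.3% of all genes in the table. The share among the clock genes was close to that background. The litter accounted for a median of 64.1% of the log2 variance of the 10 genes and 73.9% over all genes. With only a pair of mice per litter, such a share lies well above 0 even for unrelated mice.

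Clock, the partner of ARNTL in the activating dimer, was the gene most tied to the litter. In WT it ranged from 2214 to 4619 normalized counts with a median of 3740, and in OE/OE from 1683.2 to 5630 with a median of 3924. Pairs 4, 1 and 3 were the lowest in both genotypes and pairs 5, 7 and 8 the highest, and the genotypes overlapped over most of their range. The litter held 94.4% of its log2 variance. Between littermates the log2 levels had Pearson's r = 0.982 over the 7 litters (exact permutation p = 0.00238, adjusted over the 10 genes 0.0238), Spearman's rho = 0.857 (exact permutation p = 0.0238, adjusted 0.238) and r = 0.947 without the pair of litters farthest from the median.

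Per3, a PER paralog that is the least abundant per length of these genes, differed between litters through the mice of pair 5. It ranged from 222 to 555 normalized counts in WT (median 279) and from 278 to 565 in OE/OE (median 322). Both mice of pair 5 were at the top, at 555 and 565 normalized counts, and the next mouse of each genotype had 313 and 343. The litter held 89.5% of the log2 variance, and without pair 5 the adjusted p was 0.481. The correlation between littermates, r = 0.942 (exact permutation p = 0.0345, adjusted 0.161) and rho = 0.536 (exact permutation p = 0.236, adjusted 0.472), fell to -0.04 without the litters farthest from the median and so rests on those samples.

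Per1, the PER gene known for rapid induction by hormones, ranged from 3498 to 6672 normalized counts in WT (median 4093) and from 2424 to 8041 in OE/OE (median 5025). Mice of pairs 5 and 7 were high in both genotypes and those of pair 4 were low, with overlapping genotypes. The litter held 80.6% of its log2 variance, and the adjusted p was 0.0707 without pair 5, 0.0691 without pair 7, 0.0629 without the trend and 0.104 with a fibroblast score as covariate.

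Per2, a PER repressor whose loss is known to disturb rhythms, had a litter adjusted p of 0.061. It ranged from 2088 to 3539 normalized counts in WT (median 2461) and from 1084 to 5139 in OE/OE (median 2835), with pairs 5 and 7 high in both genotypes. The spread was wider in OE/OE, where the lowest mouse was that of pair 4 and the highest that of pair 5. Without pair 1 the adjusted p was 0.045 and without pair 4 it was 0.0101.

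The remaining genes did not pass the litter test. Adjusted p was 0.146 for Cry1 and 0.244 for Cry2, the CRY repressors, and 0.177 for Arntl. It was 0.35 for Nr1d2, 0.371 for Dbp and 0.47 for Nr1d1, so the genes with the widest ranges were among those least tied to the litter. The litter held 42.5% of the log2 variance of Nr1d1 and 49.1% of that of Dbp. Between littermates r was -0.15 for Nr1d1 (exact permutation p = 0.717, adjusted 0.96, rho = 0, exact permutation p = 1, r = 0.534 without the farthest litters) and -0.02 for Dbp (exact permutation p = 0.993, adjusted 0.993, rho = 0.25, exact permutation p = 0.595, r = -0.28 without the farthest litters). Without pair 4, the adjusted p of the litter was 0.0363 for Nr1d1 and 0.0268 for Nr1d2, and 6 of the 10 genes passed. Litter calls also rose over the whole table without that pair, to 6390 of 16124 genes from 5370 with every pair.

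**Figure D2:**
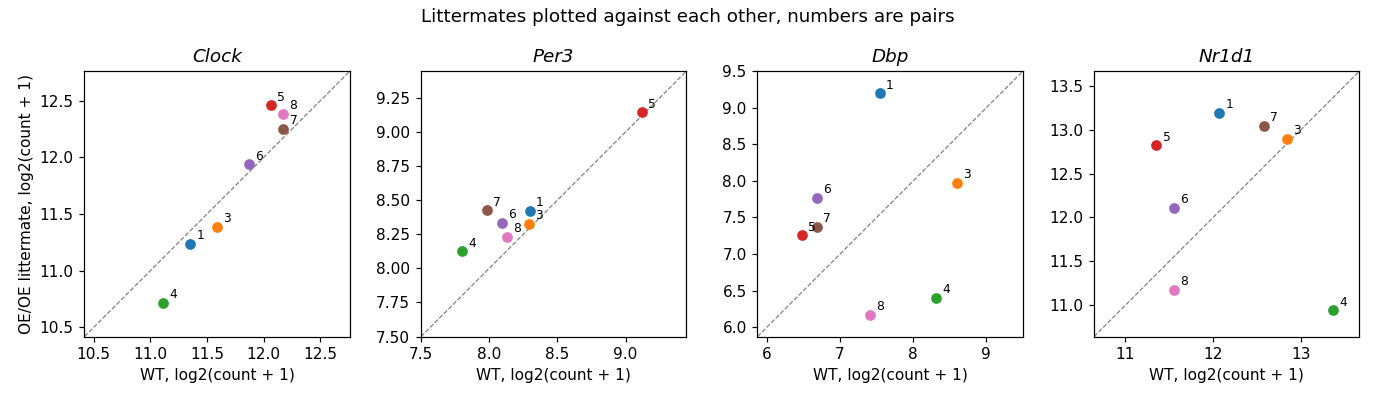
Level of Clock, Per3, Dbp and Nr1d1 in the OE/OE mouse against that in its WT littermate, both as log2(normalized count + 1), with the number of each pair and the line of equal levels dashed. Clock lies along the line, Per3 is spread by pair 5 alone, and Dbp and Nr1d1 show no alignment, with pair 4 far below the line.

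The order of the litters was shared by several genes of the loop. Taking the geometric mean of each litter, pairs 1, 3 and 4 had 910, 943 and 770 normalized counts of Arntl, and pairs 5, 6, 7 and 8 had 1215, 1188, 1166 and 1208. Clock followed the same division, from 1931 to 2867 normalized counts in pairs 1, 3 and 4 and from 3831 to 4967 in the others. Cry2 did too, from 1865 to 2769 and from 3761 to 5045, as did Per1, from 2912 to 4311 and from 4535 to 6718. Within each genotype the single mice followed this division for Arntl and Clock. For Cry2 they did not, with 3284 in WT of pair 4 and 2565 in WT of pair 5. In OE/OE, Cry2 was at 3592 in pair 1 and 3341 in pair 6, and Per1 at 5090 in pair 3 and 4842 in pair 6.

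Dbp, the PAR bZIP output factor of the clock, had the opposite order in its litter means. They were 331, 311 and 163 normalized counts in pairs 1, 3 and 4 and 116, 149, 130 and 110 in pairs 5, 6, 7 and 8. By mouse, WT followed this order but OE/OE did not. Pair 4 had 318 in WT and 83.4 in OE/OE. The OE/OE mice of pairs 5, 6, 7 and 8 had 152, 217, 165 and 71.0. This division of the litters was seen in the values and is described without a test, and no label names a batch or a day for the pairs. Since the litter means of Arntl fell into separate sets of 3 and 4, no correlation of Arntl with the other genes over litters is given. The litter test of Arntl and Dbp alone did not pass, as stated above. Litter means of Per2, Per3, Cry1, Nr1d1 and Nr1d2 did not follow the division. Nr1d1 was at 7488 normalized counts in pair 3 and 7192 in pair 7 and at 2634 in pair 8. Per2 was higher in pair 1 (2607) than in pair 6 (2103), and Cry1 higher in pair 4 (1706) than in pair 6 (1074). Nr1d2 was at 4417 in pair 3 and 3269 in pair 8.

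As a rough reading of phase, log2 of Arntl minus log2 of Dbp was computed in each mouse. The reading takes the genes to move oppositely. Arntl had r = -0.41 with Dbp over the 14 libraries and -0.11 over the pair differences. With Per1 and Cry2, over the 14 libraries, it had 0.825 and 0.677. Whether the reading followed the phase of the clock in these mice was not tested. The difference ranged from 0.99 to 3.72 in WT and from 0.50 to 4.27 in OE/OE, with full overlap. Its litter mean was 1.46 in pair 1, 1.60 in pair 3 and 2.23 in pair 4, and 3.38, 2.99, 3.16 and 3.45 in pairs 5, 6, 7 and 8. Among OE/OE mice, that of pair 4 (2.94) was above those of pairs 6 (2.43) and 7 (2.80). The litter held 58.5% of its variance, beside a median of 73.9% over all genes, and no litter test of this reading was run. Over the 14 libraries the log2 SD was 0.895 for Dbp and 0.307 for Arntl, so Dbp weighed more in this reading. In pair 1 the WT mouse was at 2.42 and the OE/OE mouse at 0.50, and in pair 8 they were at 2.63 and 4.27.

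None of the clock genes passed the threshold of the study, an unadjusted p of 0.05 or less within pairs, for a difference between OE/OE and WT. Of all genes in the table, 3.81% passed in either direction, 1.95% higher (315 genes) and 1.85% lower (299 genes) in OE/OE, and centring each library on its median turned this split into 386 higher and 245 lower. By limma 0 of the 10 clock genes passed in either direction, and edgeR and DESeq2 on the recovered fragments also called 0. The fitted log2 fold change (OE/OE over WT, on log2 of the normalized count + 1) was above 0 for 8 genes and below 0 for Per2 and Cry2, with a median of 0.05 beside -0.00 over all genes. The adjusted p was 1.00 for each of the 10. Ranges of the 2 genotypes overlapped for all 10.

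Of the activators, Arntl ranged from 770 to 1205 normalized counts in WT (median 1053) and from 648 to 1387 in OE/OE (median 1156). OE/OE mice were higher in 3 pairs and lower in 4, and both the lowest and the highest mouse were OE/OE. The log2 fold change was 0.04 (95% interval -0.24 to 0.32 by limma, two-sided exact sign-flip p = 0.797 over the pairs). For Clock it was 0.01 (-0.21 to 0.22, exact sign-flip p = 0.969), with 4 pairs higher.

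Of the PER genes, Per3 came nearest to the threshold. It was higher in the OE/OE mouse in 7 of 7 pairs, by 0.03 to 0.44 on the log2 scale, with a log2 fold change of 0.19 (95% interval -0.02 to 0.39 by limma). The genotypes overlapped, since the differences between littermates were small beside that between pair 5 and the rest. By exact sign flips of the pairs, added after the data were seen, its two-sided p was 0.0156, the smallest that 7 pairs allow. It passed the threshold in the study's paired test on untransformed counts, without the trend, after median centring and after quantile normalization, but not with either marker score as a covariate, nor with edgeR or DESeq2. For Per1 the log2 fold change was 0.10 (-0.19 to 0.38, exact sign-flip p = 0.531) and for Per2 it was -0.09 (-0.49 to 0.32, exact sign-flip p = 0.766), which turned to 0.10 without pair 4.

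Of the CRY genes, Cry1 ranged from 978 to 1871 normalized counts in WT (median 1373) and from 1090 to 2148 in OE/OE (median 1602). It was higher in OE/OE in 5 of 7 pairs, with a log2 fold change of 0.20 (95% interval -0.08 to 0.48, exact sign-flip p = 0.234), and without pair 1 it passed at 0.29 (adjusted p = 0.658 by limma), as did 1196 of all 16124 genes. Cry2 ranged from 2135 to 5467 normalized counts in WT (median 3284) and from 1059 to 6418 in OE/OE (median 3592). The lowest and the highest mouse of Cry2 were both OE/OE, those of pairs 4 and 5, and its log2 fold change was -0.09 (-0.73 to 0.55, exact sign-flip p = 0.781), which turned to 0.17 without pair 4.

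Dbp and Nr1d1 had the widest differences within pairs (SD of the log2 ratio 1.33 and 1.28), ahead of Cry2 (0.932) and Nr1d2 (0.583). Nr1d1 ranged from 2616 to 10547 normalized counts in WT (median 4299) and from 1967 to 9375 in OE/OE (median 7245). It was higher in the OE/OE mouse in 5 pairs and lower in pairs 4 and 8, and pair 4 held both extremes, with 10547 in WT and 1967 in OE/OE. The log2 fold change was 0.12 (95% interval -0.75 to 1.00, exact sign-flip p = 0.797).

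Nr1d2, its paralog, ranged from 3153 to 5082 normalized counts in WT (median 4055) and from 1954 to 5578 in OE/OE (median 4603), with the OE/OE mouse higher in 5 pairs. Its log2 fold change was 0.03 (-0.38 to 0.44, exact sign-flip p = 0.922). Without pair 4, Nr1d1 passed the threshold of the study with 0.55 (adjusted p = 0.551 by limma) and Nr1d2 with 0.24 (adjusted p = 0.537 by limma), both higher in OE/OE.

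Dbp ranged from 87.8 to 386 normalized counts in WT (median 169) and from 71.0 to 588 in OE/OE (median 165). The OE/OE mouse was higher in pairs 1, 5, 6 and 7, with log2 ratios of 0.69 to 1.66, and lower in pairs 3, 4 and 8, with log2 ratios of -0.62 to -1.92. Its log2 fold change was 0.06 (95% interval -0.86 to 0.98, exact sign-flip p = 0.922), and without pair 4 it was 0.39 and did not pass. Changes of either sign within these intervals were not excluded for Dbp and Nr1d1 with 7 pairs.

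**Figure D3:**
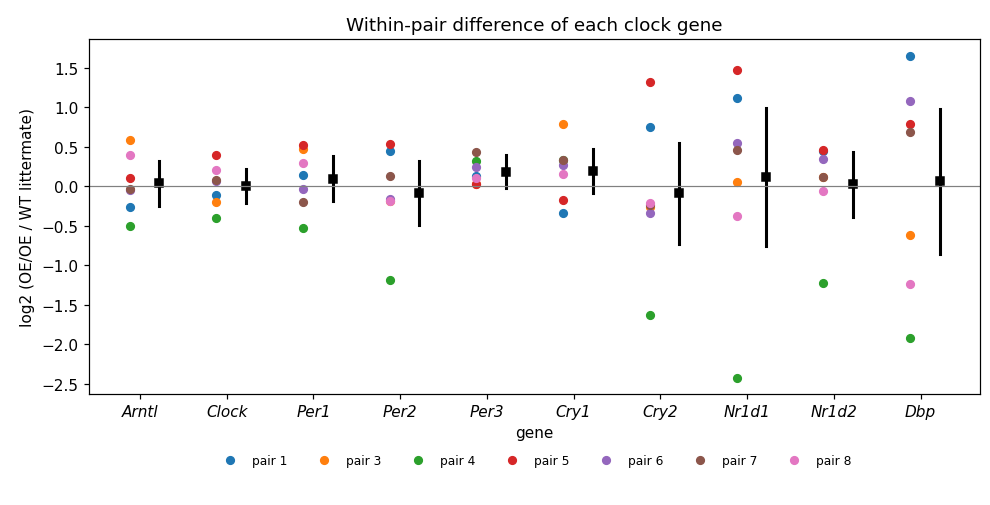
Log2 ratio of the OE/OE mouse to its WT littermate for each clock gene, one coloured point per pair, with the fitted log2 fold change (square) and its 95% interval (bar). All intervals include 0, Per3 is above 0 in 7 of 7 pairs, and the points of Dbp and Nr1d1 reach from -1.92 to 1.66 and from -2.42 to 1.47.

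No difference in the phase reading between genotypes was detected. Log2 Arntl minus log2 Dbp was 2.62 ± 1.06 (SD, n = 7) among WT mice and 2.60 ± 1.14 among their OE/OE littermates. The difference within pairs was -0.02 ± 1.42 (SD, n = 7), higher in 3 pairs and lower in 4, with a two-sided exact permutation p of 0.984 over the 128 sign patterns, whose smallest possible p is 0.0156. Single pairs differed by -1.92 to 1.64, so the mean near 0 covered large differences in both directions. Leaving out 1 pair at a time moved the mean between -0.30 and 0.29.

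Within pairs, the differences between littermates ran together for Dbp and the REV-ERB genes. The choice of Dbp as reference was made after the data were seen, and 9 relations were computed. Over the 7 pair differences Dbp had r = 0.878 with Nr1d1 (exact permutation p = 0.00476, adjusted 0.0214, rho = 0.893, exact permutation p = 0.0123, adjusted 0.102, r = 0.674 without the farthest pairs). With Nr1d2 it had r = 0.835 (exact permutation p = 0.00476, adjusted 0.0214, rho = 0.857, exact permutation p = 0.0238, adjusted 0.102, r = 0.72 without the farthest pairs). For both, the sign of the difference was that of Dbp in 6 of 7 pairs, the exception being pair 3. The relation of Dbp with Per2 had r = 0.821 (exact permutation p = 0.0234, adjusted 0.0702), and with Arntl r = -0.11 (exact permutation p = 0.8, adjusted 0.9, rho = -0.18, r = -0.98 without the farthest pairs), so that last value rests on which pairs are kept. None of the 9 relations of the pair differences of Arntl passed, the closest being Per1 with r = 0.787 (exact permutation p = 0.0353, adjusted 0.318, rho = 0.75, exact permutation p = 0.0663, r = 0.434 without the farthest pairs).

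Other transcripts moved with these differences. In bulk RNA, fewer cells of a type and less RNA per cell cannot be told apart. Over the 7 pair differences, the mean log2 level of 18 immediate early genes, the fast-response genes of the Fos, Jun and Nr4a kind, had r = 0.97 with Nr1d1 (exact permutation p = 0.00317, adjusted 0.0397, rho = 0.929, exact permutation p = 0.00675, adjusted 0.0675, r = 0.854 without the farthest pairs) and r = 0.879 with Dbp (exact permutation p = 0.00833, adjusted 0.0417, rho = 0.929, exact permutation p = 0.00675, adjusted 0.0675, r = 0.739 without the farthest pairs). These came from 20 relations of Dbp and Nr1d1 with 10 marker lists, also chosen after the data were seen. In pair 4 all 18 immediate early genes were lower in the OE/OE mouse, as were Dbp, Nr1d1 and Nr1d2, and in pairs 1 and 6 all 18 were higher, as were the same 3 clock genes.

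By genotype, 18 of the 18 immediate early genes had a fitted value above 0 and 0 passed the test, with summed levels of 342790 to 587400 normalized counts in WT and 232280 to 817060 in OE/OE, and none was at 0 in any library. Over all genes 7996 of 16124 were above 0. The 18 genes moved together within pairs, with 0 higher in OE/OE in pair 4 and 5 in pair 8. Endothelial and macrophage markers also shared a sign, 10 of 10 below 0 in each list, and 0 passed. The adipocyte score (9 genes, summed levels of 9015 to 29422 in WT and 5224 to 26925 in OE/OE, none at 0) had r = 0.873 with Dbp (exact permutation p = 0.00595, adjusted 0.0397) and r = 0.837 with Nr1d1 (exact permutation p = 0.027, adjusted 0.108). The endothelial score (10 genes, 46182 to 71121 in WT and 17316 to 92475 in OE/OE, none at 0) had r = 0.825 with Dbp (exact permutation p = 0.00476, adjusted 0.0397) and r = 0.908 with Nr1d1 (exact permutation p = 0.0385, adjusted 0.128). For both scores and both genes Spearman's rho was 0.75 (exact permutation p = 0.0663, adjusted 0.221). The part of these transcripts in the differences of Dbp and Nr1d1 was not tested beyond the fit with the adipocyte score as a covariate. In that fit 5 of the 10 clock genes passed, all higher in OE/OE, among them Dbp with a log2 fold change of 1.27 and Nr1d1 with 1.24, while 2788 genes of the whole table passed. The adjusted p by limma was 0.151 for Dbp and Nr1d1, 0.196 for Nr1d2, 0.204 for Per2 and 0.287 for Cry2. The adipocyte markers were themselves lower in OE/OE, so genotype and score are not independent in this fit.

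Pair by pair, the clock genes as a set were lower in the OE/OE mouse in pair 4 and higher in pair 5. In pair 4, 8 of the 10 genes were lower, with a median log2 ratio of -0.86 beside 0.04 over all genes, and only Per3 (0.33) and Cry1 (0.34) were higher. In pair 5, 9 of the 10 were higher, with a median of 0.49 beside -0.02 over all genes, and only Cry1 (-0.17) was lower. In the other pairs between 5 and 7 of the 10 were higher and the median lay between 0.02 and 0.29. The OE/OE library of pair 4 also held the lowest summed endothelial, fibroblast and immediate early levels of the 14 libraries, 17316, 63812 and 232280 normalized counts. Whether these had a part in its low clock genes was not tested.

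Principal components of the 10 genes placed these patterns on separate axes. Each gene was first centred on the mean of its genotype and divided by its SD, so a mean difference between genotypes cannot appear on them. The first, with 49.5% of the variance, was loaded by Per1 (0.43), Per2 (0.42), Cry2 (0.40), Clock (0.39), Arntl (0.36) and Nr1d2 (0.35). The second held 25.2% and was loaded by Dbp (0.59), Nr1d1 (0.56) and Nr1d2 (0.35), with Cry1 (-0.25), Arntl (-0.25), Clock (-0.24) and Per3 (-0.16) on the other side. On the first component the OE/OE mouse of pair 4 was at -5.85 and that of pair 5 at 3.82, with all other mice between -1.30 and 2.09.

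**Figure D4:**
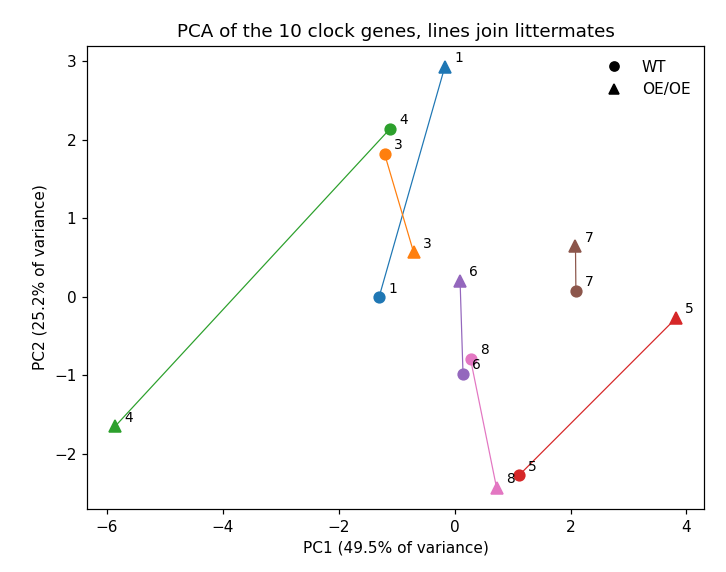
First and second principal components (percent of variance on the axes) of the 10 clock genes in the 14 libraries, circles for WT and triangles for OE/OE, with lines joining littermates and the pair number beside each point. The OE/OE mouse of pair 4 is alone at -5.85 on the first component, and that of pair 5 is at the other end at 3.82. Each gene was centred on the mean of its genotype, so the axes cannot show a mean difference between genotypes.

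As a description over the 14 libraries, with each genotype centred on its mean, 28 of the 45 pairs of clock genes had a positive correlation and 17 a negative one. The value was above 0.5 for 17 of them and below -0.5 for 0. Arntl and Clock, Arntl and Per1, and Per1 and Per2 each had r = 0.825, Clock and Per1 had 0.821 and Dbp and Nr1d1 0.773. Arntl, the activator, and Dbp, an output in the opposite phase, had -0.41. The libraries share litters and include the OE/OE mice of pairs 4 and 5, so these values have no p.

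Among the 13229 genes with a mean of at least 50 normalized counts, those most like Arntl over the 14 libraries included Zbtb11 (r = 0.938), Exd1 (0.926), Npas2 (0.906) and Thbs1 (0.901). Npas2 is the paralog of Clock that also dimerizes with ARNTL, and it was at rank 4. Nfil3 (r = 0.890), a bZIP repressor of D-box sites, and Usp2 (r = 0.890), a clock-controlled deubiquitinase, were at ranks 12 and 14, ahead of Per1 and Clock at 176 and 177. Those most like Dbp included Comp (0.936), Otud1 (0.934), Ccn1 (0.907) and Maff (0.893), of which Ccn1 and Maff are fast-response genes. Tef, the paralog of Dbp, was at rank 12 (r = 0.867) and Nr1d1 at rank 91.

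Of 23 further genes of the clock, its kinases, ligases and outputs, 22 were in the table. By genotype 1 of the 22 passed, beside 3.81% of all genes in either direction, and the median log2 fold change was 0.03. It was Csnk1e, the casein kinase that phosphorylates PER proteins for degradation. WT mice had 4048 ± 420 normalized counts (SD, n = 7) and OE/OE mice 4573 ± 599, with overlapping ranges. It was higher in OE/OE in 7 of 7 pairs, with a log2 fold change of 0.17 (SE 0.06, adjusted p = 1.00 by limma, two-sided exact sign-flip p = 0.0156). The call was lost after quantile normalization (log2 fold change 0.13), with the adipocyte (0.11) or the fibroblast (0.12) score as a covariate and without the pair block (0.17). Without pair 4, Rora (0.22), Hlf (0.29) and Nampt (0.24), which encodes the rate-limiting enzyme of NAD salvage, also passed, with adjusted p between 0.534 and 0.537 by limma. Leaving out that pair raised the calls over all 16124 genes from 614 to 1366. The paralog Csnk1d had a log2 fold change of 0.07 (exact sign-flip p = 0.438).

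Between litters 6 of the 22 passed, beside the 33.3% of all genes given above. They included Noct (adjusted p = 0.0046), a rhythmic nocturnin that acts on nicotinamide cofactors, Rora (0.0129), the receptor that activates Arntl, Npas2 (0.0199), the E-box repressor Bhlhe41 (0.0403) and the PAR bZIP factor Hlf (0.0449). The call of Bhlhe41 was lost without pairs 5, 6, 7 or 8 (adjusted p = 0.629 without pair 6), without the trend, with either covariate and with edgeR, and that of Hlf without pairs 3, 5, 6 or 7 (0.122 without pair 5), without the trend and with either covariate. Those of Rora and Npas2 were lost with the fibroblast covariate (0.0669 and 0.0751). By the litter test Clock had a lower adjusted p (0.00367) than Noct. Noct had the highest litter share of log2 variance of either list, 96.2%. It ranged from 8497 to 23602 normalized counts, and both mice of pair 5 were the highest (20980 in WT and 23602 in OE/OE) and both of pair 6 the lowest (10411 and 8497). Pair 5 was thus the highest litter for Noct as for Per3 and Per1.

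Rora ranged from 852 to 3728 normalized counts, with both mice of pair 4 the lowest in their genotype, as for Clock. Npas2 ranged from 142 to 528 normalized counts, and mice of pairs 1, 3 and 4 were below all mice of pairs 5, 6, 7 and 8, the division seen in the litter means of Arntl and Clock. Tef, the PAR bZIP factor closest to Dbp in pattern, was the least tied to the litter of the 22, with 22.1% of its log2 variance and an adjusted p of 0.861.

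Some counts could gain or lose reads where exons overlap those of a neighbour, because the strand setting of the counting is not given in the sources used here. Dbp (GRCm38, chr7:45705088-45710203, plus strand) shares 539 exonic bases, 18.0% of its exons, with Sphk2 on the opposite strand. Nr1d1 (chr11:98767932-98775333, minus strand) shares 263 bases, 8.55%, with Thra, Cry2 (chr2:92403646-92434043, minus strand) 295 bases, 4.67%, with a noncoding transcript, and Arntl (chr7:113207465-113314126, plus strand) 33 bases with an antisense transcript. Clock (chr5:76209868-76304792), Per1 (chr11:69095217-69109960), Per2 (chr1:91415982-91459324), Per3 (chr4:151003652-151044665), Cry1 (chr10:85131700-85185064) and Nr1d2 (chr14:18204054-18239127) shared no exonic base with another gene.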

How the data were processed

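Poly(A) RNA of 14 libraries was sequenced, 7 WT and 7 OE/OE mice paired as littermates by the numbers in the labels. The authors aligned the reads with TopHat2 2.0.10, counted fragments per GENCODE gene with HTSeq 0.6.0, and deposited a normalized signal, the counts divided by DESeq 1.18.0 size factors. All 16124 genes reached 10 fragments in 7 or more libraries. In every library 100% of values were whole multiples (tolerance 0.001) of 1 fragment, which gave the depth. The members and lists were chosen with earlier results of these data known.

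Differences were tested with limma 3.58.1 under R 4.3.3 (lmFit, eBayes with trend) on log2(normalized count + 1) over all genes, with the littermate pair as a block, p of 0.05 or less unadjusted as in the study. The study's paired test on the deposited values was an alternative, as were edgeR 4.0.16 and DESeq2 1.42.0 on the recovered fragments, pseudocounts of 0.1 and 10, a mean of at least 50, no trend, median centring, quantile normalization, an adipocyte or fibroblast score as covariate, no pair block, each pair left out, and, added after the data were seen, exact sign flips per gene. The pairing comes from the litters: deviations from the genotype mean correlated with a median r of 0.522 (lowest 0.171) between the 7 pairs of littermates, against -0.151 in 42 other combinations. Correlations and the phase reading used exact permutation tests (scipy 1.17.1). Tests were checked on simulated counts. Genes named are the members, called genes of the wider list, and the 5 genes most like Arntl and Dbp, of which 1 each is not reported here, nor is 1 gene of the wider list. Positions are from GENCODE M21, which held all identifiers. Genes named for values outside this rule (Csnk1d, Nfil3, Usp2, Tef) were chosen after their values were seen.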

Additional observations from a re-analysis of the deposited data

Results flagged for a closer look

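Per3 in pair 5 stood apart from the other mice in both genotypes. Of the 22 groups of 7 mice examined for a lone high or low mouse, 2 were found, both in Per3, where chance gives about 1 in 20. Among WT mice the pair 5 library had 555 normalized counts and the next 313, a gap of 0.623 of the whole range on the log2 scale, above the 95% critical value of Dixon's test. Among OE/OE mice it had 565 and the next 343, a gap of 0.705. Both mice came from the same litter, and in the other 20 groups no mouse stood apart by that measure.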

How the results depend on the processing

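The 10 log2 fold changes kept their direction and side of the threshold in 163 of 200 refits and the 10 litter tests in 155 of 170. Genotype calls among the clock genes, 0 in the report, were 1 without trend, after median centring, after quantile normalization and in the study's paired test and by exact sign flips (Per3 each time), 5 with the adipocyte covariate, and 0 to 2 when 1 pair was left out (Cry1 without pair 1, Nr1d1 and Nr1d2 without pair 4). Over all 16124 genes, 653 were called without trend, 631 after median centring, 622 after quantile normalization and 644 in the study's paired test. For exact sign flips no count over all genes is given. Without the pair block, 0 clock genes, 0 of the 22 wider genes and 182 genes in all were called. Calls over all genes were 2788 with the adipocyte covariate, 401 with the fibroblast covariate and 381 to 1366 without 1 pair (most without pairs 4 and 1, 1366 and 1196), and in the wider list 5, 0 and 1 to 4.

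Litter calls among the clock genes were 7 with the adipocyte covariate, where 7947 of all 16124 genes were called. Without 1 pair they were 1 to 6 (lowest without pair 5, highest without pair 4), beside 3229 to 6390 over all genes. The wider list had 10 after median centring (5740 over all genes), 2 with the fibroblast covariate (3865) and 11 with DESeq2 (7971). Without 1 pair the wider list had 4 to 11. Directions turned with the adipocyte covariate for Per2 (0.43), Cry1 (-0.00923) and Cry2 (0.65), with the fibroblast covariate for Per2 (0.0941) and Cry2 (0.15), in the paired test for Per2 (0.0358) and Cry2 (0.0174), and after quantile normalization for Clock (-0.0469) and Nr1d2 (-0.0179). The causes were not tested. Without 1 pair the values ranged from -0.19 to 0.10 (without pair 4) for Per2, -0.32 to 0.17 (without pair 4) for Cry2, -0.0538 to 0.13 for Arntl, -0.0575 to 0.0737 for Clock, -0.20 to 0.39 for Dbp, -0.10 to 0.55 for Nr1d1, -0.0423 to 0.24 for Nr1d2 and -0.30 to 0.29 for log2 Arntl minus log2 Dbp. Of the 5 genes most like Arntl and Dbp, 1 to 4 and 2 to 5 stayed among the first 5 without 1 pair. The shallowest libraries were the WT mice of pairs 1 and 8, and the time of collection limits any reading of phase.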
